A study of Schizosaccharomyces pombe with 3 samples.

Results

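The introns described here lie in fission yeast genes that have at least 6 introns. In the deposited table of splice junctions these are the genes with 6 or more rows, counted by gene ID, and they number 90 of 2548 genes. They hold 656 of the 5374 rows. An intron was kept when it had more than 10 reads, split and unsplit together, in each of the 3 libraries, which left 509 introns in 86 genes, of 4301 kept junctions in the whole table. The introns of a gene were numbered with roman numerals in the direction of transcription over all its rows, kept or not. Of the 90 genes, 84 had as many rows as the RefSeq annotation gives introns. The 6 exceptions were *mvp1*, *tad2*, *wtf18*, *ypt5*, *zas1* and SPAC2F3.13c, which has 6 rows but 1 annotated intron. *mvp1*, *tad2* and *zas1* had fewer rows than annotated introns, and *wtf18* and *ypt5* had more. In these genes the first or last row need not be the first or last intron.

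RNA was sequenced from *Schizosaccharomyces pombe* cells carrying *prp4-as2*, an allele of the Prp4 kinase gene whose product is inhibited by the ATP analogue 1NM-PP1, grown in EMM medium. One library came from untreated cells (0 min), one from cells 30 min and one from cells 60 min after 10 μM 1NM-PP1. All 3 libraries carried *prp4-as2*, and neither a strain with unmodified Prp4 nor a vehicle control was analysed here, so inhibition of the kinase, the inhibitor itself and time in culture cannot be told apart. With 1 library per time there is no spread between cultures and no test was possible, so intervals below cover counting error only.

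Most introns of fission yeast are short and are recognised by base pairing of their 5’ SS with snRNA U1, of their branch sequence with snRNA U2, and by factors that read the 3’ SS. Prp4 is a kinase of the spliceosome that phosphorylates the splicing factor Prp1 and acts as the spliceosome is activated. A coding intron that stops or shifts the reading frame must be removed before its transcript can be translated in full. A gene with many introns can hold several of these.

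The unit is the Relative Splicing Efficiency Index (RSEI), the log2 ratio of split to unsplit reads over the exon1/5’ SS junction with 1 read added to each count. A RSEI of 0 means as many unsplit as split reads at that junction, and an intron with a RSEI below 0 is called retained. The table held 910440, 852562 and 743457 junction reads at 0, 30 and 60 min, of which 6.92%, 30.0% and 22.8% were unsplit. The kept introns of the genes with many introns had a median of 57, 54 and 50 reads at these times, against 83, 82 and 72 over all kept junctions.

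To show what the comparison within a gene rests on, the retained and the spliced extreme of 6 genes are printed here. Each run starts with the last 3 bases of the exon and ends with the last base of the intron. Capitals mark positions -3 to +6, which face snRNA U1, and the branch pentamer nearest the 3’ SS. That pentamer was searched on the transcribed strand in the last 40 nt as CUNAC, as CUNAU, as UUNAC and as UUNAU, and is a match of letters only. It was found in 500 of 507 kept introns with a sequence (98.6%), against 99.1% of all kept introns.
cds1 IV: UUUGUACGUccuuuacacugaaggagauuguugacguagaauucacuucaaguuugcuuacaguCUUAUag
cds1 II: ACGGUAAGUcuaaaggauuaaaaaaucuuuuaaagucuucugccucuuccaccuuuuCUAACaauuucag
ulp2 III: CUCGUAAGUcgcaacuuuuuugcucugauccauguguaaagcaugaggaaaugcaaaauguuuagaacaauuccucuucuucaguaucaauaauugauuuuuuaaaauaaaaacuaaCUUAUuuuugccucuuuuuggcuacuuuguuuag
ulp2 IV: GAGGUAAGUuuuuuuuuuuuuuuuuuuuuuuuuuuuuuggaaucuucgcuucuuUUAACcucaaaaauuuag
mnh1 I: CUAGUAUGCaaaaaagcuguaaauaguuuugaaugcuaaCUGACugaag
mnh1 III: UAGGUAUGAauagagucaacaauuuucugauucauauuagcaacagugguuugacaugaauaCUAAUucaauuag
SPCC1620.05 II: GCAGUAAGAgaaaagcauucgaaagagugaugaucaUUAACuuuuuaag
SPCC1620.05 VI: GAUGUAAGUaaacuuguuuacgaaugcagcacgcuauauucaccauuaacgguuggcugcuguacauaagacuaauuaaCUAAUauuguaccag
trt1 III: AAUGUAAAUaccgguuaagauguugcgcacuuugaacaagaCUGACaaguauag
trt1 XI: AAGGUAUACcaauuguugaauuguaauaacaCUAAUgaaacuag
rho2 IV: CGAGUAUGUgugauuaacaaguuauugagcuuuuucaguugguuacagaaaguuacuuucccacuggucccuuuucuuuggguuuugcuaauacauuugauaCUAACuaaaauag
rho2 VII: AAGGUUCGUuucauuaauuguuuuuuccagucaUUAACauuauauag
The introns lie, in the RefSeq build ASM294v3, at chrIII:740536-740603 and chrIII:740766-740832 (*cds1* IV and II), chrI:1766189-1766336 and chrI:1765273-1765341 (*ulp2* III and IV), chrII:4002582-4002627 and chrII:4002393-4002464 (*mnh1* I and III), and chrIII:2152345-2152390 and chrIII:2153368-2153458 (SPCC1620.05 II and VI). Those of the last 2 genes lie at chrII:2065475-2065525 and chrII:2063524-2063564 (*trt1* III and XI) and at chrI:4423405-4423516 and chrI:4423786-4423829 (*rho2* IV and VII). *rho2* and SPCC1620.05 are on the plus strand and the other 4 genes on the minus strand. All 12 introns interrupt coding sequence.

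The RSEI of nearly every intron in these genes was lower after addition of the inhibitor. It was lower at 30 min than in untreated cells in 493 of 509 introns (96.9%), where the share over all kept junctions was 97.2%, and the median RSEI was 3.38, 0.42 and 1.42 at 0, 30 and 60 min. The median intron was 6.98%, 42.7% and 25.9% unspliced at these times. At 30 min 215 of the 509 introns were retained (42.2%, 37.9 to 46.7%), and the background over all kept junctions was 39.4%. At 60 min 142 were retained (27.9%), against a background of 26.3%, and in untreated cells 9 were (1.77%), against 2.81%. A fall of the RSEI by 1 or more at 30 min occurred in 451 introns (88.6%), where the background was 87.5%. On each of these counts the genes with many introns stood near the whole table.

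At 30 min 324 introns had a higher unspliced share than in untreated cells with 95% intervals apart (63.7%), fewer than the 69.1% over the table. This call depends on depth. Among introns with more than 50 reads in every library its share was 73.3% in the genes with 6 or more rows, against 77.1% in genes with 2 to 5 rows.

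Recovery by 60 min was the count in which these genes stood farthest from the table. The RSEI was higher by 1 or more at 60 than at 30 min in 225 of 509 introns (44.2%, 39.8 to 48.6%), against a background of 36.7%. In genes with 2 to 5 rows the share was 38.5% (36.7 to 40.3%), and in genes with 1 row it was 26.5% (23.6 to 29.5%). At more than 50 reads in every library the 3 shares were 44.3%, 37.4% and 22.8%, in the same order of gene size. Whether a culture repeated at these times would show that order was not tested. Of the 215 introns retained at 30 min, 72 had a RSEI above 0 again at 60 min (33.5%), close to the 32.9% over the table.

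The reads themselves moved in both classes. Scaled to the junction reads of its library, the median intron had 0.557 times the split reads and 4.03 times the unsplit reads at 30 min that it had in untreated cells, with 1 read added to each count. The sum of both was 1.05 times that of untreated cells. In retained introns the split reads were at 0.310 times the untreated level, and in the other introns at 0.863 times.

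The spread within a gene was wider than the spread between genes. Among the 76 genes with at least 4 kept introns, the SD of the RSEI within genes was 1.34, 1.79 and 1.85 at 0, 30 and 60 min. The SD between genes was 0.64, 1.29 and 1.18. It is a variance component, from which the part of the gene means due to spread within genes was taken out. The gene an intron belongs to thus took up 18.5%, 34.1% and 28.9% of the variance of the RSEI. Counting error, computed from the reads of each intron, equalled 34.0%, 9.98% and 11% of the variance within genes, so it was a larger part of the spread in untreated cells. The median range from the lowest to the highest intron of a gene at 30 min was 4.63 (4.03 to 5.01). In 59 genes the range was over 3 and in 29 over 5. In genes with 2 to 5 rows and at least 4 kept introns, the SD within genes at 30 min was 1.83 and the SD between them 1.38.

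Most of these genes held both retained and spliced introns. At 30 min 59 of the 76 genes had introns of both kinds (77.6%), against 104 of 157 genes with 2 to 5 rows and at least 4 kept introns (66.2%), which have fewer introns in which to differ. Of the 76 genes, 7 had every kept intron retained and 10 had none. At 60 min 50 of the 76 were mixed (65.8%), against 80 of the 157 (51%), 4 had every kept intron retained and 22 had none, and in untreated cells 7 genes were mixed and 69 had no retained intron. In 42 genes at least 1 intron had an interval of the unspliced share wholly above 50% and another an interval wholly below 50% at 30 min. The genes with every kept intron retained were *rdh54*, *chk1*, *tpz1*, *pku70*, SPBP19A11.07c, SPAC3C7.07c and SPCC18B5.10c. Those with none were *cdc7*, *srp2*, *apc5*, *ypt5*, *naa25*, *rsd1*, *cul3*, *vma5*, *usp105* and SPCC1827.07c.

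**Figure D1:**
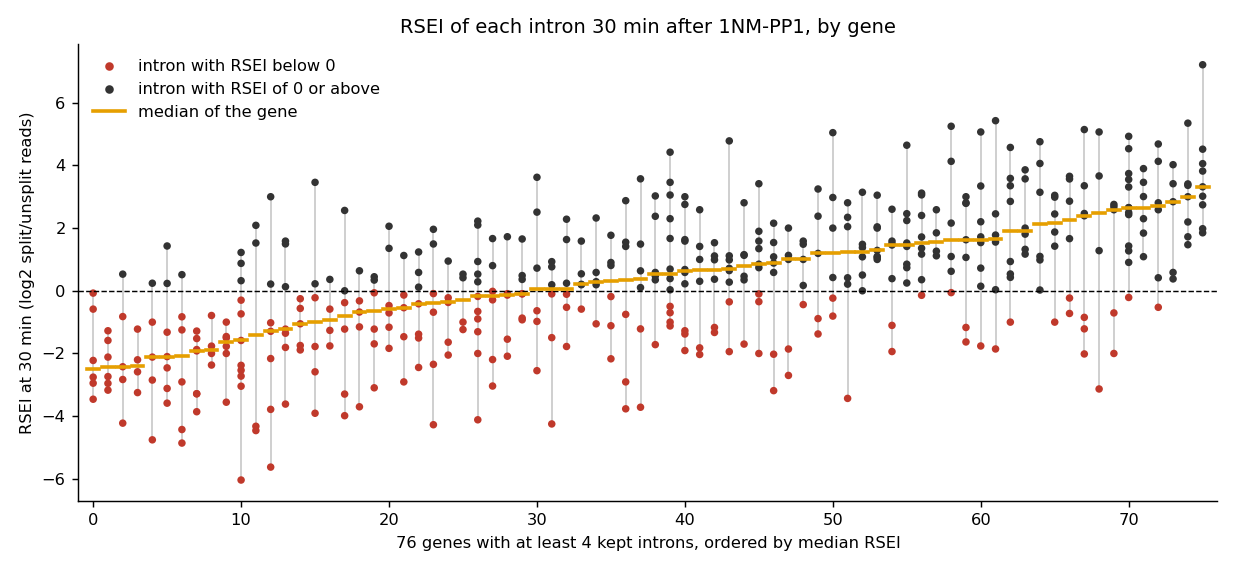
RSEI of each kept intron at 30 min (vertical axis, log2) in the 76 genes with at least 4 kept introns, ordered by the median of the gene (orange bar). Points below the dashed line at 0 are retained introns, and 59 genes have points on both sides of it.

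The widest gene was *cds1*, which encodes the kinase of the replication checkpoint and has 7 introns, all kept. Its intron IV had 44, 8 and 8 split reads and 67, 443 and 288 unsplit reads at 0, 30 and 60 min. This intron was 98.2% unspliced at 30 min (96.5 to 99.2%) and already 60.4% in untreated cells (50.6 to 69.5%). Intron II of the same transcript had 64, 55 and 65 split and 2, 6 and 2 unsplit reads, and was 9.84% unspliced at 30 min (3.70 to 20.2%). The RSEI at 30 min was -5.62 in intron IV and 3.0 in intron II, a range of 8.62. The other 5 introns lay between, at -2.16 (I), -1.29 (III), -1.02 (V), -3.78 (VI) and 0.21 (VII). As printed above, 7 of the 9 bases from -3 to +6 of intron II can pair with snRNA U1 and 5 of those of intron IV.

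*ulp2*, for a SUMO protease, had a range of 8.20 over 4 kept introns. Its intron IV hardly moved, with 82, 66 and 73 split reads and 1 unsplit read at each time. Intron III had 8, 12 and 7 split and 7, 113 and 65 unsplit reads, and was 90.4% unspliced at 30 min (83.8 to 94.9%), against 46.7% in untreated cells (21.3 to 73.4%). Both introns carry GUAAGU at +1 to +6.

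In *mnh1*, which encodes Mago nashi, in animals a core protein of the exon junction complex, the range was 7.29. The first intron had 248, 22 and 71 split and 79, 301 and 223 unsplit reads, and was 93.2% unspliced at 30 min (89.9 to 95.7%), against 24.2% in untreated cells. Intron III had 281, 213 and 232 split and 2, 17 and 10 unsplit reads and was 7.39% unspliced at 30 min (4.36 to 11.6%). *mnh1* was deeply read, so that the 95% intervals of these introns at 30 min do not come near each other.

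The other genes of the 10 widest were *ers1*, an RNA silencing factor (7.37), *get4*, of the pathway that delivers tail-anchored proteins to membranes (7.28), *trt1* (7.26), *ftp105*, for a partner of the ubiquitin protease Ubp5 (7.16), *rmt1*, for a protein arginine methyltransferase (6.83), *rho2* (6.72), and SPCC1620.05, for the alpha subunit of the Rab prenyltransferase (6.64). In *get4* the lowest intron was the last, VI, with 40, 28 and 21 split and 7, 104 and 98 unsplit reads. In *rmt1* a single intron of 8, III, was retained at 30 min, with 89, 35 and 51 split and 20, 121 and 63 unsplit reads. In *ers1* the range rests on fewer reads, 22 in the first intron and 30 in intron VI at 30 min.

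Of the 5 narrowest genes, 4 lay wholly on 1 side of 0. SPCC1827.07c, for a protein with SPX and EXS domains, had a range of 1.47 over 4 kept introns, all between 1.12 and 2.58. *chk1*, the DNA damage checkpoint kinase, had a range of 1.58 over 4 kept introns that were all retained, from -2.37 to -0.79. SPCC18B5.10c, for the THO complex subunit Tho3, ranged over 1.63, and *tpz1* over 1.89, also with every kept intron retained. SPBC11C11.01, for a U2-associated protein, ranged over 1.77 around 0, from -1.24 to 0.53.

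Among the 5 genes with most introns, each had its own pattern along the transcript. *trt1*, the catalytic subunit of telomerase, has 15 introns, of which 11 were kept. Of these 8 were retained at 30 min and 7 at 60 min, and the median RSEI was 2.64, -1.58 and -1.25 at 0, 30 and 60 min. Over the 5 introns with more than 20 reads per library the median at 30 min was -2.72. Intron III of *trt1* was retained at all times, with 10, 2 and 1 split and 46, 196 and 120 unsplit reads. It was 82.1% unspliced in untreated cells (69.6 to 91.1%), the lowest RSEI of any kept intron there at -2.10. Intron XIII was retained at every time as well, with 25, 3 and 5 split and 33, 32 and 77 unsplit reads. Introns VI, XI and XIV had a RSEI above 0 at 30 min (0.32, 1.22 and 0.87).

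*rdh54*, for a DNA translocase of recombination, has 14 introns, of which 7 were kept. Every one of the 7 was retained at 30 and at 60 min, from -3.86 to -1.29 at 30 min. In untreated cells the same 7 introns had a RSEI of 0.85 to 2.81. Intron IX had 39, 1 and 8 split and 5, 28 and 15 unsplit reads. The 7 introns left out had at most 17 reads in any library.

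*clr6*, the class 1 histone deacetylase, has 13 introns, all kept, and only XII was retained at 30 min. That intron had 137, 175 and 136 split and 26, 203 and 136 unsplit reads, so that at 60 min split and unsplit reads were equal. Its neighbours XI and XIII had a RSEI of 2.65 and 1.27 at 30 min. Intron IV was next lowest, at 0.91, and intron VIII was highest at 4.93.

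*trk2*, for a potassium transporter, has 12 introns, all kept, and SPCC320.04c, for the Gem1 subunit of the ERMES complex that tethers mitochondria to the endoplasmic reticulum, has 12, of which 10 were kept. In *trk2* introns I, III, VII and VIII were retained at 30 min, and III alone at 60 min. Intron VIII had 117, 33 and 82 split and 4, 47 and 28 unsplit reads, whereas XI, 3 introns further on, had 139, 149 and 141 split and 4, 6 and 5 unsplit reads. In SPCC320.04c introns II, IX and X were retained at 30 min, between -1.91 and -1.27, and 2 of them at 60 min.

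**Figure D2:**
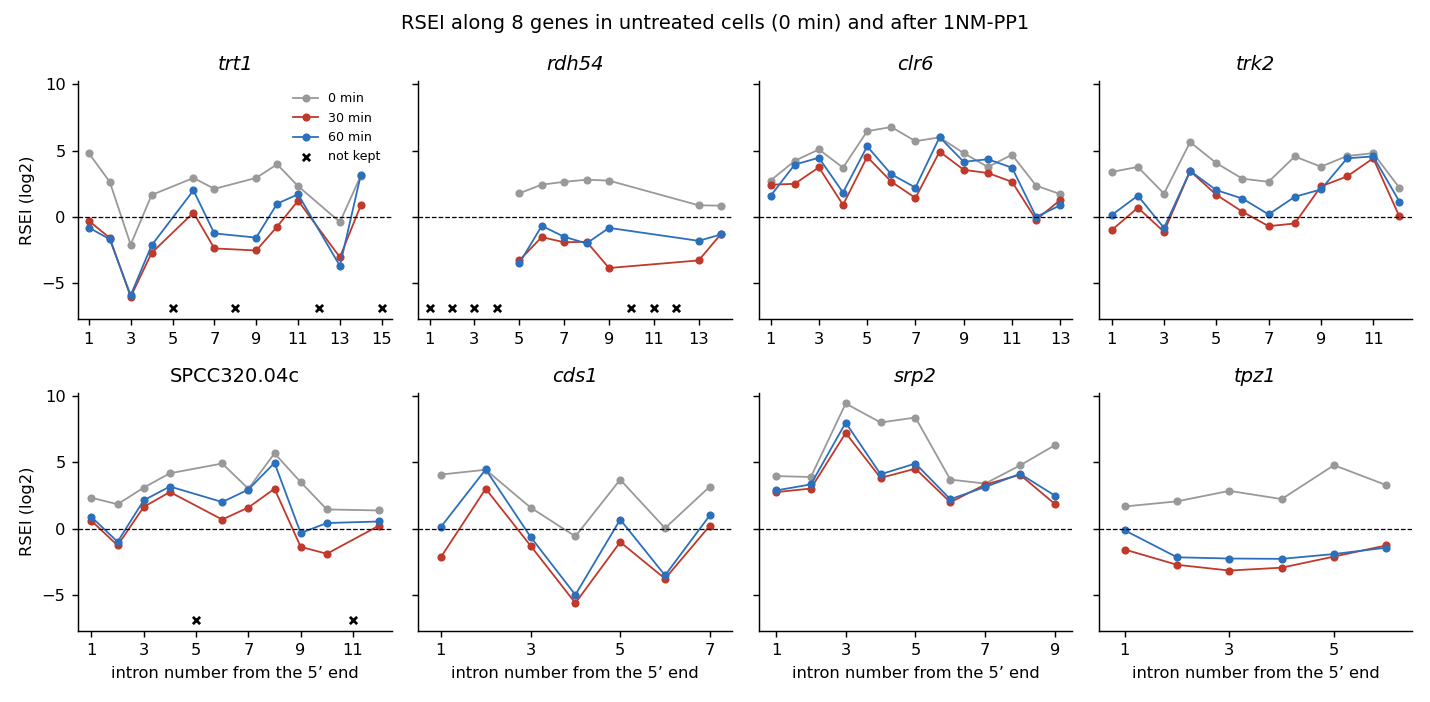
RSEI (log2) against intron number from the 5’ end in the 5 genes with most introns and in *cds1*, *srp2* and *tpz1*, at 0 (grey), 30 (red) and 60 min (blue), with crosses for introns that were not kept. In *cds1* introns IV and VI are the lowest at all 3 times, and in *rdh54* and *tpz1* every point of the 30 min line lies below the dashed line at 0.

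Among the genes with at least 4 kept introns, those with the lowest median RSEI at 30 min were SPBP19A11.07c, of unknown function (-2.49, but -1.67 over its 4 introns with more than 20 reads per library), *tpz1* (-2.43), *cdc24*, a DNA replication protein (-2.42), *pku70*, a subunit of the Ku complex (-2.39), and SPBC582.04c, annotated as *dsh1* (-2.12). *tpz1*, for a protein of the telomere cap, had all 6 introns retained at 30 and at 60 min. Its intron V had 54, 5 and 4 split and 1, 25 and 18 unsplit reads, which is 83.3% unspliced at 30 min (65.3 to 94.4%) against 1.82% in untreated cells (0.046 to 9.72%). In *pku70* all 4 kept introns were retained at both times, and its median was as low at 60 min (-2.50) as at 30 min. In *cdc24* the first intron stood apart at 30 min, at 0.53. In untreated cells it had been the lowest of the gene, with a RSEI of 0. Intron V was at -4.22 at 30 min, with 68, 2 and 4 split and 19, 55 and 38 unsplit reads.

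At the other end stood *srp2*, for an SR-type RNA-binding protein (3.32), *naa25*, for a subunit of the NatB N-acetyltransferase (3.0), *cul3*, for a cullin of ubiquitin ligases (2.84), *did2*, for a subunit of ESCRT-III (2.70), and *vma5*, for a subunit of the vacuolar ATPase (2.65). *srp2* was the most deeply read gene. Its intron III had 1383, 1184 and 1014 split and 1, 7 and 3 unsplit reads, the highest RSEI of any kept intron at 30 min (7.21). Its lowest intron at 30 min, IX, had 312, 309 and 262 split and 3, 85 and 46 unsplit reads. No kept intron of *srp2*, *naa25*, *cul3* or *vma5* was retained at either time, and in *did2* only IV was, at 30 min, with 33 split and 48 unsplit reads.

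Position along the gene made little difference to how many introns were retained at 30 min. Retained were 28 of 68 first introns (41.2%, 29.4 to 53.8%), 158 of 369 internal introns (42.8%, 37.7 to 48.0%) and 29 of 72 last introns (40.3%, 28.9 to 52.5%). The median RSEI at 30 min was 0.39, 0.42 and 0.41 in these classes. Counted from the 5’ end, number III was lowest, with a median of -0.06 and 35 of 68 retained (51.5%, 39.0 to 63.8%). Introns numbered VII or higher were highest, with a median of 0.99 and 30 of 90 retained (33.3%, 23.7 to 44.1%), and came from 38 genes. These intervals overlap. Spearman’s rho of the RSEI at 30 min with relative position was 0.06 over 509 introns, which share genes and libraries.

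Set against the other introns of its own gene, so that each gene counts once, the first intron was 0.06 higher at 30 min in the median (-0.24 to 0.68) over 65 genes with 3 or more other kept introns. It was higher in 33 genes and lower in 32. The last intron was 0.23 higher (-0.46 to 0.99), in 35 of 65 genes. For the change from untreated cells the differences depended on which introns entered. The fall of the first intron was less by 0.75 (-0.02 to 0.94), in 40 of 65 genes, and that of the last by 0.37 (0.12 to 0.99), in 41 of 65. Among introns with a RSEI above 0 in untreated cells the first-intron value was 0.41 (-0.20 to 0.94) and the last-intron value 0.43 (0.12 to 0.98). With more than 20 reads per library they were 0.51 (-1.26 to 1.08) and 0.78 (-0.16 to 1.39). With more than 50 reads they were 0.53 (-0.73 to 0.81) and 0.23 (-0.62 to 1.35). Of these intervals, only those of the last intron over 65 genes and among introns above 0 in untreated cells leave out 0. In genes with 2 to 5 rows, where 1 other kept intron was enough, the differences in the change were -0.002 for the first and 0.18 for the last intron (0.003 to 0.31). A fall of 1 or more was seen in 54 of 68 first introns (79.4%), 334 of 369 internal introns (90.5%) and 63 of 72 last introns (87.5%). First introns had fewer reads in untreated cells, by 0.41 on the log2 scale (-0.79 to -0.07), and their part in these differences was not tested.

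**Figure D3:**
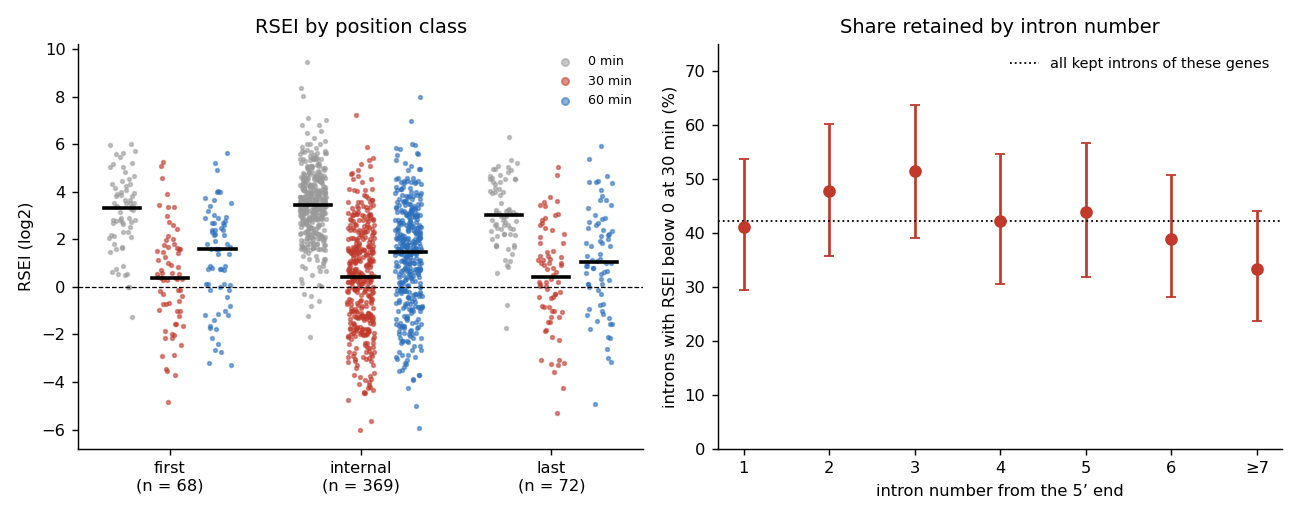
Left, RSEI (log2) of first, internal and last introns at 0 (grey), 30 (red) and 60 min (blue), with a black bar at the median. Right, percent of introns retained at 30 min by number from the 5’ end with exact 95% intervals, beside the 42.2% of all 509 kept introns (dotted line), which lies within every interval.

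Single genes ran in opposite directions. Among the genes with at least 4 kept introns, the first was far below the last at 30 min in SPCC1620.05 (-2.91 and 2.87), in *nbs1*, for a subunit of the Mre11 complex of DNA repair (-2.0 and 2.68), in *paa1*, for the scaffold of protein phosphatase PP2A (-0.98 and 3.62), in the twinfilin gene *twf1* (-0.72 and 3.57) and in *ubp13*, annotated as Pan2 of the poly(A) nuclease (-1.0 and 3.04). In SPCC1620.05 the RSEI went up along the transcript from intron II on, with -3.77, -0.75, 1.42, 1.55 and 2.87 for introns II to VI. The first intron was far above the last in *tad2*, for a tRNA adenosine deaminase subunit (1.961 and -4.27), *kes1*, for an oxysterol binding protein (2.16 and -3.19), *rad16*, for the repair endonuclease XPF (1.43 and -3.58), *rpb1*, for the largest subunit of RNA polymerase II (5.25 and 0.62), and *ftp105* (3.35 and -0.85). *tad2* has 6 rows but 7 annotated introns, so its first and last rows need not be its first and last introns. The last intron of *kes1*, VII, lies in the 3’ UTR and was retained at all times, with 82, 9 and 14 split and 140, 90 and 135 unsplit reads.

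The lowest intron of a gene was the first in 11 of the 76 genes (14.5%) and the last in 12 (15.8%), and first and last introns each made up 13.4% of the kept introns in these genes. The highest was the first in 14 (18.4%) and the last in 12 (15.8%). The lowest intron was the same at 30 and 60 min in 55 of 76 genes, and the same at 30 min and in untreated cells in 35. Over all 509 introns the rank order was much the same at 30 and 60 min (Spearman’s rho 0.92). It was looser between 30 min and untreated cells (rho 0.62). The RSEI in untreated cells and the change at 30 min had a rho of -0.001. That change is measured from the same RSEI, whose counting error enters both, so this value cannot show whether they go together.

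Neighbouring introns were nearly as unlike as distant introns of the same gene. The median absolute difference of the RSEI at 30 min was 1.66 over 375 pairs of neighbours and 1.72 over 1065 pairs farther apart, against 2.17 over all 127846 pairs from different genes. Both introns of a pair were on the same side of 0 in 67.2% of neighbours, 63.4% of pairs farther apart and 51% of pairs from different genes. With a short exon of at most 50 nt between them 34 of 56 neighbours were on the same side (60.7%), with 51 to 150 nt 114 of 166 (68.7%) and with longer exons 100 of 147 (68.0%). The 95% intervals of the unspliced share were apart in 44.9% of the 1440 pairs within genes at 30 min, against 18.1% in untreated cells.

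Retained introns had fewer bases that can pair with snRNA U1. The count of pairing bases, that is of the bases complementary to the 5’ end of snRNA U1 among the 9 at -3 to +6, averaged 5.79 in 213 retained introns and 6.30 in 294 others. Within the 59 mixed genes it was lower in the retained than in the spliced introns of 40 genes, equal in 8 and higher in 11. With 4, 5, 6, 7 and 8 such bases the retained share was 76.5%, 61.6%, 38.9%, 29.8% and 20.7%, over 17, 112, 216, 131 and 29 introns. Spearman’s rho of this count with the RSEI at 30 min was 0.34 over 507 introns that share genes and base composition. The pairs printed above show exceptions. In *trt1* intron III has 6 pairing bases and XI has 5, and in *rho2* introns IV and VII have 6 each, at a RSEI of -1.94 and 4.78. The only intron with all 9 bases, III of SPBC3E7.04c, named after its values were seen, had 58, 14 and 25 split and 14, 59 and 37 unsplit reads and was retained at 30 min.

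By position, the pairing base was rarer in retained introns at +4 (39.0%, 32.4 to 45.9%, against 53.7%, 47.9 to 59.5%), at +5 (75.1% against 88.8%) and at +6 (54.5% against 70.4%), with intervals apart at all 3. Within the mixed genes, with 161 retained and 218 other introns, it was rarer at the same positions. There the intervals overlapped at +4 (41.6% against 53.2%) and narrowly at +5 (75.8%, 68.4 to 82.2%, against 87.2%, 82.0 to 91.3%). They were apart at +6 (52.8% against 70.6%). At -1 the shares were 52.1% (45.2 to 59.0%) and 54.4% (48.5 to 60.2%), a difference smaller than the counting error. In genes with 2 to 5 rows the -1 base was present in 48.3% of retained (45.3 to 51.2%) and 63.7% of other introns (61.4 to 66.0%), and in genes with 1 row in 44.6% and 66.4%. Whether the -1 difference differs between these gene sizes was not tested, and introns of 1 gene are not independent. The most frequent sequence at +1 to +6, GUAAGU, was present in 120 of the 507 introns (23.7%), and 26 of these were retained (21.7%, 14.7 to 30.1%). GUAUGA was present in 18, of which 12 were retained (66.7%, 41.0 to 86.7%).

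**Figure D4:**
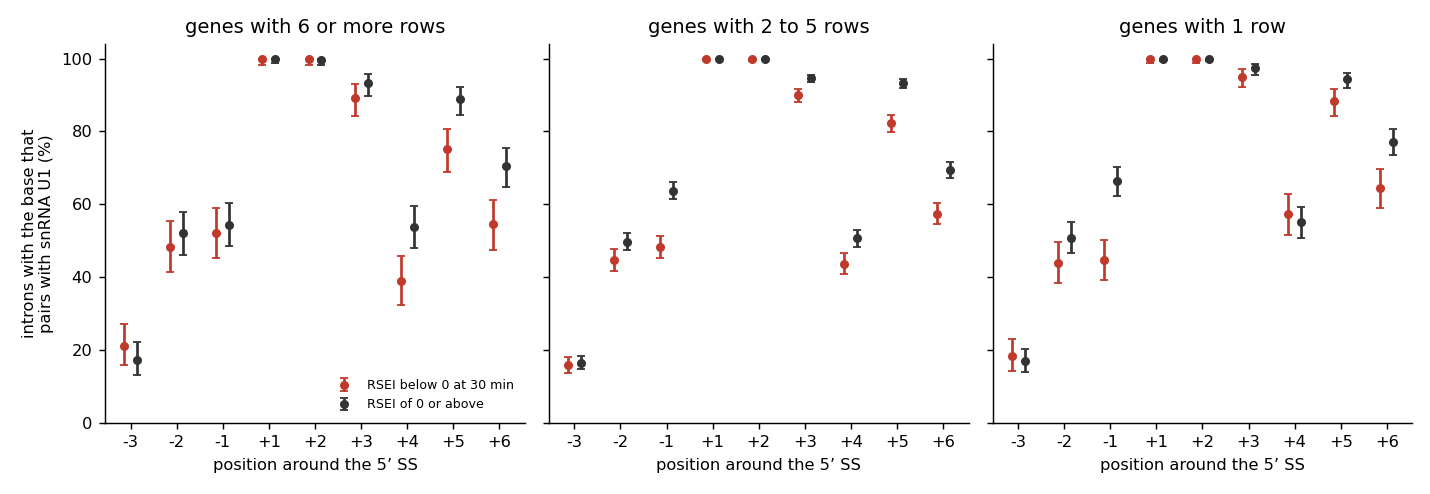
Percent of introns with the base that can pair with snRNA U1 at each position around the 5’ SS, for retained introns (red) and the others (black), with exact 95% intervals, in genes with 6 or more rows, 2 to 5 rows and 1 row. In the left panel the intervals are apart at +4, +5 and +6 and overlap at -1.

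The retained share was also counted by the branch pentamer nearest the 3’ SS. CUAAC was the most frequent (132 introns, 26.0%, against 33.1% of all kept introns), with 34.1% of its introns retained (26.1 to 42.8%). Of 24 introns with CUGAC 14 were retained (58.3%, 36.6 to 77.9%), an interval that overlaps that of CUAAC. Of 15 with UUGAC 11 were (73.3%, 44.9 to 92.2%), an interval apart from that of CUAAC. The nearest match need not be the branch sequence in use. In *mnh1* I and *ulp2* III, printed above, a CUAAC overlaps the start of the marked pentamer but was not counted. Median length was 46 nt in retained and 47 nt in other introns, and introns were shorter here than in genes with 2 to 5 rows (55 and 57 nt). Within the mixed genes retained introns were shorter in 23 and longer in 33 of 59. Retained introns had a lower RSEI already in untreated cells in 53 of 59 mixed genes, with a median of 2.72 against 3.94.

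Of the 503 kept introns in coding sequence, 396 hold a stop codon in the reading frame that enters them (78.7%), 168 of 210 retained introns (80.0%) and 228 of 293 others (77.8%). Only 25 have neither such a stop nor a length that shifts the frame, 9 of them retained.

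Before treatment the introns with the 10 largest falls had a RSEI between 2.17 and 6.02, 6 of them above the median of 3.38. Intron II of SPCC1620.05 had 95, 9 and 18 split and 4, 135 and 75 unsplit reads, a change of -8.03 at 30 min, and was 93.8% unspliced (88.5 to 97.1%) against 4.04% in untreated cells (1.11 to 10.02%). Intron V of *lig4*, the ligase of end joining, had 31, 1 and 8 split and 2, 42 and 26 unsplit reads, a change of -7.84. Intron V of SPAC20H4.09, for an RNA helicase, had 64, 7 and 13 split and 0, 27 and 18 unsplit reads, a change of -7.83. The other 7 of the 10 largest falls, between -7.21 and -6.59, were in *tad2* VI, *rad16* V and IV, SPBC582.04c VII, *tpz1* V, SPBC27B12.05 III and *rdh54* IX.

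The RSEI was higher at 30 min than in untreated cells in 16 introns, and in none of them were the unspliced shares apart by their intervals. The largest rises were in *cul3* III (29, 64 and 48 split and 4, 3 and 5 unsplit reads, a change of 1.44), the last intron of the nucleoporin gene *nup107*, VI (85, 65 and 58 split and 5, 1 and 8 unsplit reads, a change of 1.20), and *rho2* VII (25, 54 and 49 split and 1, 1 and 9 unsplit reads, a change of 1.08). They were followed by the first intron of *rsd1*, for an RNA-binding protein (0.93), and intron IX of *cdc7*, a kinase of the septation initiation network (0.85). Each of these rests on 11 or fewer unsplit reads in any library.

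Between 30 and 60 min the largest rise was in *rad16* V, with 44, 1 and 11 split and 1, 10 and 4 unsplit reads, a change of 3.72. It was followed by *lig4* I (3.48), *rga9* VII (3.37), *chk1* IV (3.35) and the first intron of *icp55*, for a peptidase (3.15). In *chk1* IV split reads were 17, 4 and 11 and unsplit reads 1, 16 and 3. The largest falls in that interval were in *rho2* VII (-2.46), *nup107* VI (-2.33), the last row of the sorting nexin gene *mvp1*, IX (-1.29), *pku70* V (-1.28) and *ftp105* VII (-1.27). The unspliced share was lower at 60 than at 30 min with intervals apart in 80 introns (15.7%), against 17.1% over all kept junctions, and higher in 0. By this call, unlike that of a rise by 1 or more, the genes with many introns did not stand above the table.

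In untreated cells the lowest were *trt1* III, the last intron of *alp41*, VI, *lig4* I, SPBP19A11.07c III and IV of SPAC27D7.08c, for a methyltransferase. *alp41*, for a GTP-binding protein of tubulin folding, had 6, 0 and 0 split and 22, 39 and 29 unsplit reads in intron VI, which lies in the 3’ UTR. It was 100% unspliced at 30 min (91.0 to 100%).

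Grouped by role, with lists made from patterns of gene symbols, the genes of DNA replication, repair and chromosome segregation had the largest retained share of the lists. In the 8 listed genes 27 of 39 kept introns were retained at 30 min (69.2%, 52.4 to 83.0%), beside 42.2% of all 509, and their median RSEI was 2.86, -1.29 and -0.08 at 0, 30 and 60 min. A fall of 1 or more was seen in 37 of the 39. Retained were 5 of 7 introns of *cds1*, 5 of 7 of *rad16*, 5 of 6 of *lig4*, 4 of 5 of *cdc24*, 4 of 4 of *chk1*, 2 of 2 of *alp41*, 1 of 3 of *alp1* and 1 of 5 of *mis4*, for the loader of cohesin. *alp1* and *alp41* entered by their symbols and encode tubulin folding factors. These introns had a median of 42 reads at 30 min and 36 in untreated cells, fewer than the 54 and 57 of all kept introns. The lowest intron of the list was *cds1* IV. The highest was *alp1* VI, with 41, 40 and 69 split and 1, 2 and 10 unsplit reads.

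The lists with few retained introns were transcription and chromatin (*clr6*, *rpb1* and *spt7*, 3 of 27, median 2.49), spliceosome and mRNA processing (*srp2*, *rsd1*, *usp105* and *ysh1*, 3 of 27, median 1.98) and transporters, metabolism and lipids (*vma5* and *psd3*, 0 of 9, with an interval of 0 to 33.6%, median 2.30). In the first the retained introns included *spt7* III, in a gene for a subunit of the SAGA complex, with 23, 5 and 12 split and 0, 11 and 6 unsplit reads. In the second all 3 were in *ysh1*, for the endonuclease of mRNA 3’ cleavage, whose first intron had 50, 17 and 17 split and 11, 80 and 58 unsplit reads. The highest introns of these lists were the first intron of *rpb1*, with 36, 37 and 29 split and 0 unsplit reads at each time, and *srp2* III. In the transporter list the lowest was *vma5* III, with 402, 254 and 287 split and 7, 119 and 81 unsplit reads, and the highest *psd3* III, of a phosphatidylserine decarboxylase gene, with 44, 57 and 49 split reads and no unsplit read. The first 2 lists had a median of 87 and 116 reads at 30 min and 63 and 129 in untreated cells, more than all kept introns. These shares hold for the symbols that matched, and genes of the same roles were left out. For mRNA processing these included SPCC18B5.10c (5 of 5 kept introns retained at 30 min), SPBC11C11.01 (2 of 4) and *mnh1* (2 of 6). For transcription and chromatin they included the RNA silencing factor gene *ers1* (4 of 6), *rtf1*, for a termination factor of RNA polymerase I (2 of 6), and the transcription regulator gene *zas1* (0 of 1). Of the 27 introns in the transcription and chromatin list, 13 were those of *clr6*. For transporters and lipids they included *trk2* (4 of 12), SPBC776.05, for a transporter (3 of 4), and *plh1*, for a lipid acyltransferase (1 of 8).

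The ubiquitin list (*apc5*, *csn3*, *cul3*, *nse4*, *ubp13* and *ulp2*) had 6 of 32 introns retained and a median of 1.18. Of these 6, 3 were in *nse4*, which entered by its symbol and encodes a subunit of the SMC5/6 complex, and whose intron V was the lowest of the list, with 37, 2 and 4 split and 12, 56 and 74 unsplit reads. The highest was *ulp2* IV. *ubp13*, annotated as Pan2 of the poly(A) nuclease, also entered by its symbol and had 1 of 6 introns retained. The vesicle traffic list (*cog3*, *rho2*, *sec8*, *sip1* and *ypt5*) had 9 of 33 and a median of 1.06, with 4 of 5 introns of *cog3*, for a subunit of the COG complex of the Golgi, and 0 of 7 of the Rab GTPase gene *ypt5*. Its lowest intron was *cog3* V, with 20, 1 and 9 split and 2, 14 and 11 unsplit reads, and its highest *rho2* VII. The cytoskeleton list (*gtb1*, *rga9* and *twf1*) had 5 of 19 and a median of 1.50. Its lowest intron was III of *gtb1*, for gamma-tubulin, with 29, 9 and 7 split and 9, 107 and 83 unsplit reads, and its highest was *twf1* II. The list of protein kinases and phosphatases (*cdc7*, *ppk3*, *ppk26* and *cdc24*, which is no kinase) had 14 of 31 and a median of 0.25. Of these genes, *ppk26* (6 of 11 retained) is annotated as a subunit of the PAN complex. Its introns ran from *cdc24* V to *cdc7* II, which had 15, 24 and 16 split reads and 0 unsplit reads at each time. The checkpoint kinases *cds1* (5 of 7 retained) and *chk1* (4 of 4) were not in this list but in that of DNA replication and repair. The phosphatase scaffold gene *paa1* (3 of 6) was in no list. The translation list (*trm5* and *vrs2*) had 5 of 8 and a median of -1.56, with all 3 kept introns of *vrs2*, for valyl-tRNA ligase, retained at 30 and at 60 min. Its lowest intron was *vrs2* V, with 11, 0 and 2 split and 3, 16 and 21 unsplit reads, and its highest the first of *trm5*, for a tRNA methyltransferase, with 76, 11 and 41 split and 10, 2 and 7 unsplit reads. No gene matched the mitochondrial list. The introns in no list were 289, of which 147 were retained (50.9%).

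**Figure D5:**
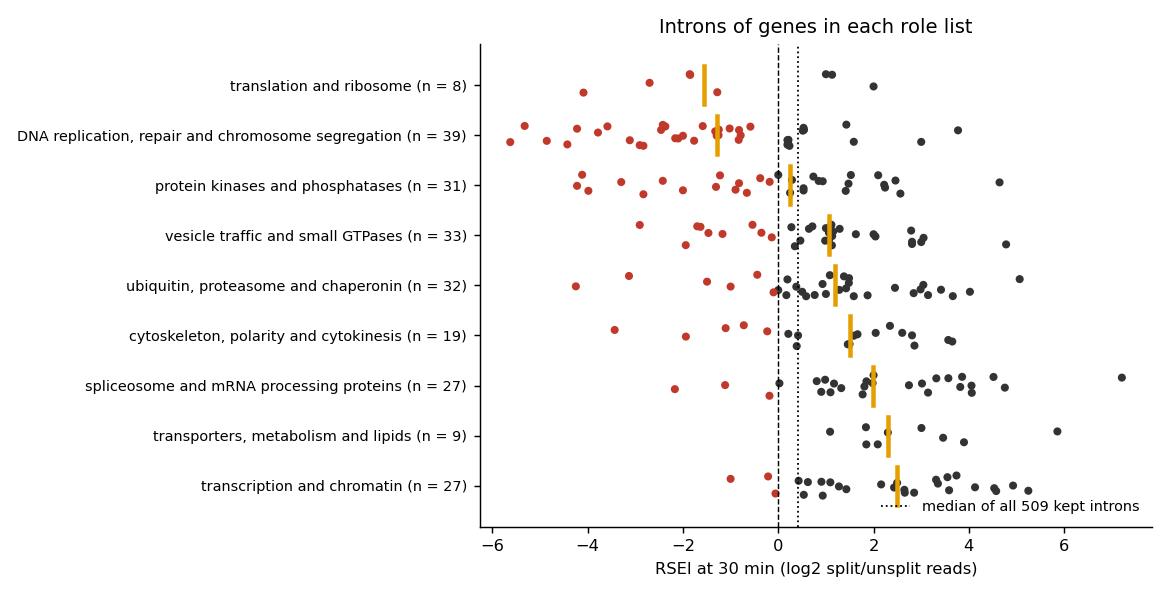
RSEI at 30 min (log2) of the kept introns of each role list, retained introns in red and the others in black, with an orange bar at the median of the list and a dotted line at the median of all 509 kept introns (0.42). The DNA replication and translation lists have medians below 0.

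Around the limits of the rule, the 230 kept introns of genes with 6 rows had a median RSEI of 0.19 at 30 min (-0.18 to 0.47), and the 335 of genes with 5 rows, just outside it, 0.35 (0.00 to 0.68). Of the introns in the genes with many introns, 121 had 11 to 20 reads in their shallowest library, with a median of 0.21 at 30 min and 56 retained, and 60 had 6 to 10 reads and were left out, with a median of -1.37 and 42 retained. In all, 147 of the 656 rows were left out. In 4 genes (*hop1*, *rec11*, *mug137* and *wtf18*) no intron was kept, in 10 genes 1 to 3 were, and in 37 genes every one was.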

How the data were processed

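The authors prepared directional mRNA libraries, mapped them against Ensembl ASM294 v1.15 by TopHat (v2.0.5), and their processing notes also name SAMtools. The deposited counts are split and unsplit reads that cover the 5’ exon junction with the 3 bases next to it, without normalization. The deposited log2 values, the RSEI, equal the log2 ratio of the authors’ counts with 1 read added to each in every row.

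Rows were grouped by gene ID, numbered by start and strand, and matched to annotated 5’ SSs of the RefSeq assembly ASM294v3 (introns of at least 20 nt, 652 of 656 rows). Junctions listed under more than 1 gene were counted once in the whole table. Shares have exact (Clopper-Pearson) 95% intervals and medians order-statistic 95% intervals; PCR copies are not independent molecules, so they cover counting error only. Genes with at least 4 kept introns entered the spread within genes. Scripts used Python 3.11.15, numpy 2.4.6, pandas 2.3.3, scipy 1.17.1 and matplotlib 3.10.9 and were tested on simulated counts.

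Named were the 5 genes with most rows, and, among genes with at least 4 kept introns, the 10 widest and 5 narrowest, the 5 lowest and 5 highest medians, the 5 largest differences between first and last intron each way; further the introns with the largest falls (10) and rises (5) at 30 min, the 5 largest changes each way between 30 and 60 min, the 5 lowest in untreated cells, and the ends of each role list. The members, lists and rules were chosen with earlier results of these data known. Alternatives changed the read filter, the thresholds, the intervals, the added read, the genes and the time.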

Additional observations from a re-analysis of the deposited data

How the results depend on the processing

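With 1 library per time every value rests on that library, no library could be left out, and no paired analysis was possible because no time had a second sample. Deeper introns were less often retained: with more than 50 reads per library 33.8% of 210 introns were retained at 30 min and 19.5% at 60 min, beside 30.7% and 19.2% over the table. The unspliced share was higher with intervals apart in 68.6% with more than 20 reads and in 73.3% with more than 50. Stricter calls gave 28.9% retained (RSEI below -1), 70.7% falling by 2 or more and 52.8% with 99% intervals apart, against 24.2%, 70.2% and 58.4% over the table. The first intron differed from its gene by 0.75 for the change of the RSEI in place of its level at 30 min. The median spread within genes was 3.29 as a range in untreated cells and 1.67 as an SD at 30 min. The other 64 alternative values stayed within the 95% interval of the value reported, or within a preset tolerance where it has none, and leaving out SPAC2F3.13c was among them. With more than 20 reads per library the median at 30 min moved by over 1.5 times in *trt1* (-2.72), *rad16* (-1.32) and SPBC11C11.01 (-1.0), and with more than 50 the difference of the last intron from its gene at 30 min was -0.26 in place of 0.23. Without an added read, introns with no split or no unsplit read were left out of the ranges. The alternatives on recovery, relative position, pairing bases, role lists, SPAC2F3.13c and the change at the gene ends were chosen after seeing the data. Depth limits single introns most: at 30 min the 95% interval of the unspliced share held 50% in 146 of 509.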
